A study of Mus musculus with 17 samples.

Results

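The promoters described here are those of mouse genes named Zfp followed by a number, the largest run of zinc finger protein genes under a single naming scheme. Members were all rows whose RefSeq identifier belongs to a symbol of that form, apart from Zfp42 and Zfp281, which are known as pluripotency factors and were left out by the rule. Of 28015 rows in the tables of nucleosome-sized fragments, 459 qualified, and counting each repeated position once gave 390 start sites of 361 genes among 24084 distinct start sites. The rule uses names and no measured value. In 23 genes more than 1 start site was listed. The names cover more than a single protein family: most carry arrays of C2H2 fingers, but Zfp36, for example, is a CCCH protein that binds RNA.

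Many C2H2 zinc finger genes of the mouse encode repressors with a KRAB domain. Their finger arrays bind DNA, often in retrotransposons, and the KRAB domain recruits the scaffold Trim28, which brings the histone methyltransferase Setdb1, heterochromatin proteins and DNA methyltransferases. These genes arose largely by tandem duplication and lie in clusters, in which neighbours share much of their sequence. Their promoters are often rich in CpG dinucleotides, and in mature sperm most DNA is packaged by protamines, with nucleosomes kept at a minority of sites.

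Micrococcal nuclease (MNase), which cuts DNA between nucleosomes, was used to map chromatin in embryonic stem (ES) cells and in sperm. The ES library came from E14 cells, a mouse line of strain 129 X Ola grown without feeders on gelatin in serum with LIF, and holds the supernatant of a 5000 g spin after digestion. Sperm were collected by swim-up from the cauda epididymis and the vas deferens of C57/B6J mice aged 10 weeks, and were crosslinked in 1% formaldehyde for 15 min. The standard sperm library is a supernatant, an unspun sperm series used 0.5, 2, 10 and 50 units of MNase, and a supernatant and a pellet series used 1, 5, 20 and 100 units each. Digestion lasted 5 min at 37 °C in the series. Each of these 14 groups is 1 library, so no difference has a replicate check and no test was made. Intervals are exact 95% counting intervals (Clopper-Pearson), except those of dose slopes, which are normal approximations from the counts. PCR copies are not separate molecules, so all these intervals cover counting error only. Strain and cell type cannot be told apart in any comparison of sperm with ES cells, and a promoter carries no marker by which the labelled cell type could be checked.

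Depth differed widely. One isolated fragment is worth 22 pileup units, and in these fragment equivalents the ES library held 32.2 and the standard sperm library 21.6 fragments per start site within 1000 bp to each side. The 12 titration libraries held between 0.213 and 0.949. Over the Zfp start sites this came to 12280 fragments in ES cells and 8135 in standard sperm, against 225 to 316 in the unspun libraries. Single Zfp genes are therefore read from the 2 deep libraries, and the titration only from sums over many promoters.

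The promoters were grouped by the CpG class in the submitters' tables. Of the 390 start sites, 186 were high-CpG, 55 intermediate-CpG and 12 low-CpG promoters, and 137 had no class. Among classed Zfp sites 73.5% were high-CpG, against 64.1% of all classed sites, and 4.74% were low-CpG, against 17.2%. RefSeq promoter windows (250 bases before to 50 after a start, assembly GRCm38.p6) were matched by symbol for 300 of the 361 genes. The 4 printed first are those with the highest and the lowest sperm level relative to ES cells among the named high-CpG genes (Zfp94 and Zfp36) and among the named intermediate- or low-CpG genes (Zfp109 and Zfp940). All 4 lie on the minus strand of chromosome 7, at chr7:24316617-24316916 for Zfp94, chr7:28379179-28379478 for Zfp36, chr7:24237549-24237848 for Zfp109 and chr7:29853599-29853898 for Zfp940. Capitals mark CpG dinucleotides, and each runs 5′ to 3′ along the gene.
Zfp94: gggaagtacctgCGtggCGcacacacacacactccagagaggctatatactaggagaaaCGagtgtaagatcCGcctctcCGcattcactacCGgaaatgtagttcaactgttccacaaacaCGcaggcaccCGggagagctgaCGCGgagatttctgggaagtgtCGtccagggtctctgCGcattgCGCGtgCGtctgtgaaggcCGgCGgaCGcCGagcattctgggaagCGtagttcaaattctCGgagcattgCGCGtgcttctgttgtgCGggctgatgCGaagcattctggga
Zfp36: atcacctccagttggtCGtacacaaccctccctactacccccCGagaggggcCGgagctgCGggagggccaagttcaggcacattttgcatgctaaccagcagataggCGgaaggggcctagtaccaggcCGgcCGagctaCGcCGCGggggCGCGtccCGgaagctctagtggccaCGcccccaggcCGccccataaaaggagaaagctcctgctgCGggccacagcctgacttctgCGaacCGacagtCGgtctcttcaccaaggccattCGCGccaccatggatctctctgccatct
Zfp109: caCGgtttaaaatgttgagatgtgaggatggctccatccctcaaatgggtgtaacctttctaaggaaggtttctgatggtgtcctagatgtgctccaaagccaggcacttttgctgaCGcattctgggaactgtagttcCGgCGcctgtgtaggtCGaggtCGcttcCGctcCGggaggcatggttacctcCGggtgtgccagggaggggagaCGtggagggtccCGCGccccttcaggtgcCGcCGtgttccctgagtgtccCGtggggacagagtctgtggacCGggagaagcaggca
Zfp940: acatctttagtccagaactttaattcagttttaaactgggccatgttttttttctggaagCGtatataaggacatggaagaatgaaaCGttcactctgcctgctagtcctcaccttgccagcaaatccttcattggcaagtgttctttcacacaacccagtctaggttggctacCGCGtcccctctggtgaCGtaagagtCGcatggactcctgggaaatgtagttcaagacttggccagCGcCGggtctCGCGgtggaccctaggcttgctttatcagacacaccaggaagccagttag

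These windows held 25 CpG in Zfp94, 21 in Zfp36, 16 in Zfp109 and 10 in Zfp940. Over all 300 Zfp windows the median was 14 CpG (middle 50% of genes 8 to 21), against 7 (3 to 21) over 27025 genes of the table, while GC content was 54.7% against 52.7%. The direction depended on the class. High-CpG Zfp windows had fewer CpG than other high-CpG windows, 18 (14 to 23) against 22 (16 to 29), and intermediate-CpG Zfp windows had more than the other intermediate ones, 9.5 against 6. In CpG count the classes thus lay closer together among Zfp promoters.

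Short motifs, searched on both strands, were spread unevenly. The GC box of Sp1 and Klf factors (GGGCGG) was found in 45.7% of Zfp windows and in 35.9% of all windows, yet among high-CpG windows it was rarer in Zfp genes, 56.3% against 70.2%. The TATA box (TATAAA) was found in 6.33% of Zfp windows against 14.2% of all, but among high-CpG windows in 6.34% and 6.51%. The CCAAT box of NF-Y was found in 46.3% against 37.9%. The E-box CACGTG was in 8.0% and 7.24%, and among high-CpG windows in 6.34% and 11.0%. None of these motifs contains another.

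Of the 6 motifs reported, the widest gap was found for a longer form, picked from the printed Zfp windows, of the site that Zfp143 and the THAP protein Ronin are known to bind. Its core ACTACAA was in 7.0% of Zfp windows and 3.45% of all. The letters ACTACA and TCCCA with any 2 bases between them (13 bases in all), a form chosen after the printed windows had been read and overlapping the core where the first free base is A, were in 52 of 300 Zfp windows, 17.3%, against 437 of 27025 windows, 1.62%. In the intermediate-CpG class they were in 20 of 40 Zfp windows, 50.0%, against 2.18% of the other windows, and in the high-CpG class in 7.75% against 3.16%. The Zfp109 and Zfp940 windows above hold 1 match each, and the Zfp94 and Zfp36 windows hold none. A match is a run of letters and not a shown binding site.

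The 56 matches in these 52 windows were concentrated just before the start. Their midpoints had a median of 51 bases upstream (middle 50% from 77 to 23.3 bases upstream), and 43 of 56 ran in the orientation that reads TGGGA first along the gene. Written in that orientation the most frequent form was TGGGAAATGTAGT with 32 matches, followed by TGGGAATTGTAGT with 8 and TGGGAAGTGTAGT with 6. Of the Zfp genes in physical clusters (defined below) 44 of 142 with a window held a match, 31.0%, against 8 of 158 outside, 5.06%. Neighbouring Zfp genes share ancestry, so these are not independent occurrences, but none of the 52 windows shared as much as 50% of its 36-base words with a window elsewhere.

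Around the start sites, Zfp promoters had fewer nucleosome-sized fragments than their flanks in both deep libraries, and the dip lay further downstream in sperm. The start-site ratio used here is the mean signal over the 200 bp upstream, or over the 300 bp downstream, divided by the mean over flanks 1000 to 2000 bp away. High-CpG Zfp promoters had a ratio in ES cells of 0.388 upstream (0.347 to 0.433) and 0.354 downstream (0.321 to 0.389). In standard sperm it was 0.317 upstream (0.274 to 0.365) and 0.179 downstream (0.152 to 0.208). Only the downstream interval lay clear of that in ES cells. The lowest point of the averaged profile was 10 bp upstream of the start in ES cells and 130 bp downstream in sperm, the same positions as in the other high-CpG promoters.

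**Figure D1:**
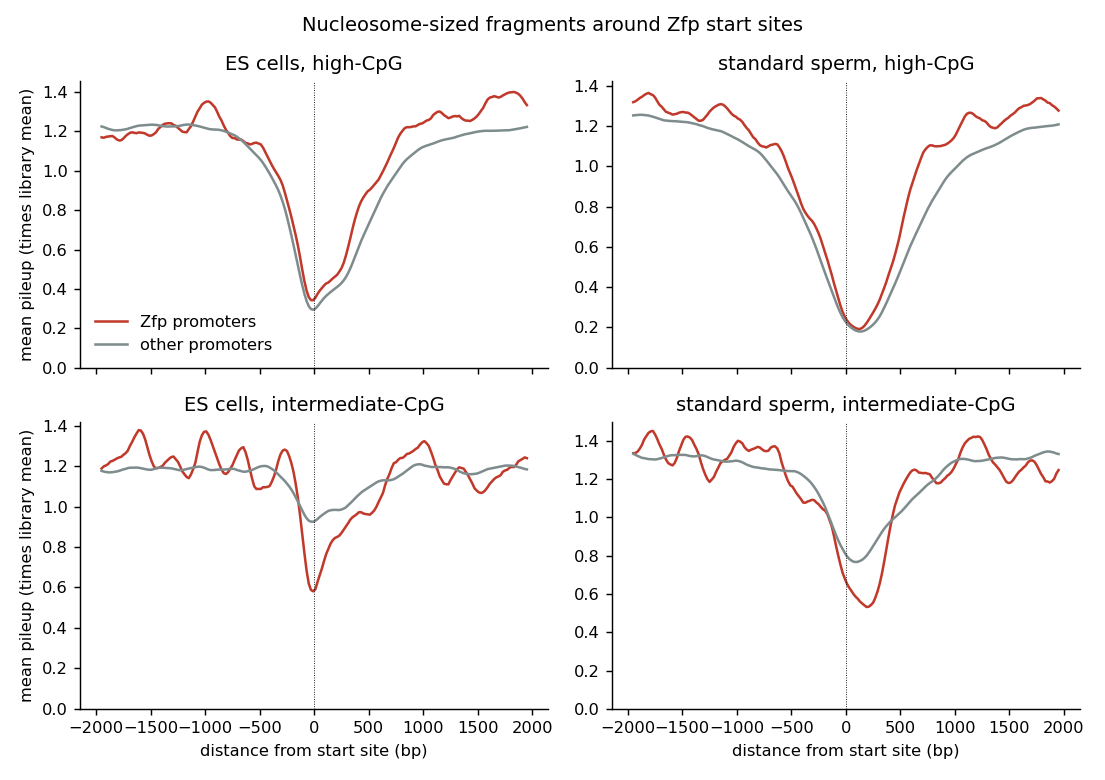
Mean pileup of nucleosome-sized fragments, divided by the library's mean, against distance from the start site in bp, for Zfp (red) and other (grey) promoters of the high-CpG (top) and intermediate-CpG (bottom) classes in ES cells (left) and standard sperm (right), smoothed over 5 bins. The dip of high-CpG promoters is centred 10 bp upstream in ES cells and 130 bp downstream in sperm, and intermediate-CpG Zfp promoters have a deeper dip than the other promoters of their class in both libraries.

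The dip was shallower in high-CpG Zfp promoters than in the other high-CpG promoters of ES cells, whose ratios were 0.345 upstream and 0.315 downstream, and was deeper in intermediate-CpG Zfp promoters. In that class the ES ratios were 0.688 upstream (0.585 to 0.805) and 0.647 downstream (0.564 to 0.740), against 0.824 and 0.819 in other promoters. In sperm they were 0.664 (0.550 to 0.795) and 0.438 (0.363 to 0.525), against 0.705 and 0.610. The sperm upstream interval of intermediate-CpG Zfp promoters included the value of the other promoters.

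Position in clusters went with the depth of the dip. High-CpG Zfp promoters inside clusters had ES ratios of 0.477 upstream and 0.441 downstream, those outside 0.335 and 0.302. In sperm the ratios were 0.410 and 0.227 inside and 0.258 and 0.148 outside. In this class the dip was less deep inside clusters in both libraries. Intermediate-CpG Zfp promoters had ES ratios of 0.818 upstream and 0.759 downstream (0.640 to 0.897) inside clusters, against 0.520 and 0.501 (0.394 to 0.630) outside. In sperm their downstream ratios lay in the other order, 0.380 (0.292 to 0.488) inside and 0.525 (0.397 to 0.684) outside, with overlapping intervals.

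Genes with the 13-base match also had more fragments just upstream of the start. Over 52 genes with it the sperm upstream ratio was 0.669 (0.551 to 0.806), and over 237 genes with signal and without it 0.348 (0.306 to 0.393). The sperm downstream ratios were closer, 0.337 (0.270 to 0.417) and 0.244 (0.215 to 0.275). In ES cells the upstream ratios were 0.639 (0.534 to 0.760) and 0.437 (0.397 to 0.481). Within the high-CpG class the sperm upstream ratio was 0.615 (0.382 to 0.943) with the match in 11 genes and 0.289 (0.241 to 0.344) without it in 131. In the intermediate-CpG class the values were 0.678 and 0.705, so the gap was not found in every class. The part of class and of cluster position in these gaps was not tested.

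The sperm level relative to ES cells was taken for each gene at 1 start site, as the log2 ratio of the shares of all fragments within 1000 bp, with 1 fragment added to each library. Zfp genes as a whole were centred on no difference: over the 349 with any signal the median was 0.00, with 176 higher and 173 lower in sperm. The median over all 21564 genes was −0.07. The middle 50% of Zfp genes lay between −0.42 and 0.42, and of all genes between −0.52 and 0.42. Among genes with at least 20 fragments in 1 of both libraries, 10 of 289 Zfp genes (3.46%) were at least 2-fold higher in sperm, against a background of 6.37% of 17965 genes, and 16 (5.54%) at least 2-fold lower, against 9.01%. The counting interval lay above 0 in 26 Zfp genes (9.0%; background 12.9%) and below 0 in 27 (9.34%; background 12.7%). All 4 shares were under their background over all classes together. Within each class and without a class, the shares lower in sperm were also under those of other genes. An interval below 0 was found in 13.7% against 16.7% of high-CpG and 3.85% against 10.0% of intermediate-CpG genes. The shares higher in sperm were not under those of other genes in every class. Of high-CpG Zfp genes 2.6% were 2-fold higher, against 2.5% of other high-CpG genes, and 7.84% against 4.47% had an interval above 0. In the intermediate-CpG class these shares were 7.69% against 6.47% and 11.5% against 14.9%. Without a class they were 2.67% against 9.98% and 10.7% against 17.9%.

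**Figure D2:**
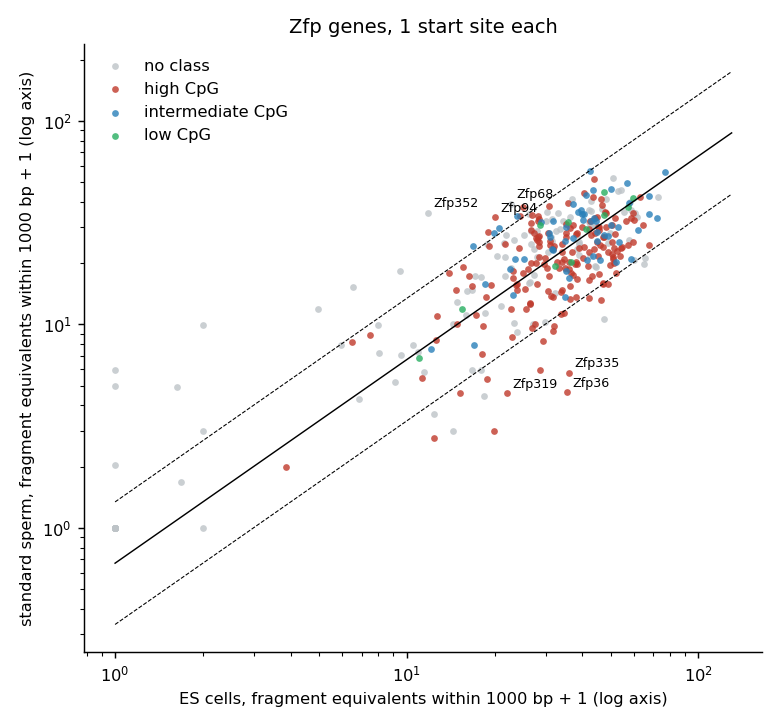
Fragment equivalents within 1000 bp of the start site plus 1, in ES cells (x, log axis) and standard sperm (y, log axis), for each Zfp gene at 1 start site, coloured by CpG class. The solid line marks equal library shares and the dashed lines a 2-fold difference; Zfp352, Zfp68 and Zfp94 lie above the upper line and Zfp36, Zfp335 and Zfp319 below the lower one.

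In standard sperm high-CpG genes had the lowest median level in both Zfp and other genes. The highest median was in the low-CpG class among other genes and in the unclassed group among Zfp genes. The median was −0.16 over 174 high-CpG Zfp genes (other high-CpG genes −0.26), 0.13 over 55 intermediate-CpG Zfp genes (others 0.02), 0.10 over 11 low-CpG Zfp genes (others 0.24) and 0.24 over 109 without a class (others 0.10). Summed over start sites, the log2 ratio was −0.15 (−0.21 to −0.09) for high-CpG Zfp promoters and 0.10 (0.00 to 0.19) for intermediate-CpG ones. It was 0.13 (−0.08 to 0.35) for the 12 low-CpG sites and 0.11 (0.03 to 0.18) for unclassed ones. Which Zfp group was highest thus depended on the measure. The unspun libraries gave the other order: against the same ES library, high-CpG Zfp promoters had 0.05 (−0.07 to 0.18), intermediate-CpG ones −0.23 (−0.47 to −0.0048) and unclassed ones −0.28 (−0.46 to −0.09). Other high-CpG promoters had 0.20 there and other low-CpG promoters −0.33. The class order of the sperm level thus differed between the standard library and the summed unspun libraries. It also varied over the unspun doses. At 0.5 units high- and intermediate-CpG Zfp promoters were close, with 0.09 and 0.07. At 50 units they had 0.03 (−0.23 to 0.28) and −0.67 (−1.26 to −0.14). The labels give no dose for the standard library, so preparation and dose cannot be told apart. High-CpG Zfp genes were 2-fold lower in sperm in 13 of 153 cases, 8.5%, against 12.9% of the other high-CpG genes.

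Within the high-CpG class the cluster position went with the level in standard sperm. Inside clusters 68 high-CpG Zfp genes had a median of −0.02, and outside 106 had −0.25. Summed, the log2 ratios were −0.01 (−0.10 to 0.08) inside and −0.25 (−0.33 to −0.17) outside, and these intervals did not overlap. Outside clusters 12 of 93 high-CpG Zfp genes were 2-fold lower in sperm, and inside 1 of 60. The outside share, 12.9%, equalled that of the other high-CpG genes. In the unspun libraries no such gap was seen in this class: the summed ratio to ES cells was 0.08 (−0.12 to 0.27) inside and 0.04 (−0.12 to 0.20) outside. Intermediate-CpG Zfp genes had medians in standard sperm of 0.12 inside and 0.16 outside. Their summed unspun ratio to ES cells was −0.55 (−0.88 to −0.24) inside and 0.22 (−0.13 to 0.55) outside, and these intervals did not overlap.

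**Figure D3:**
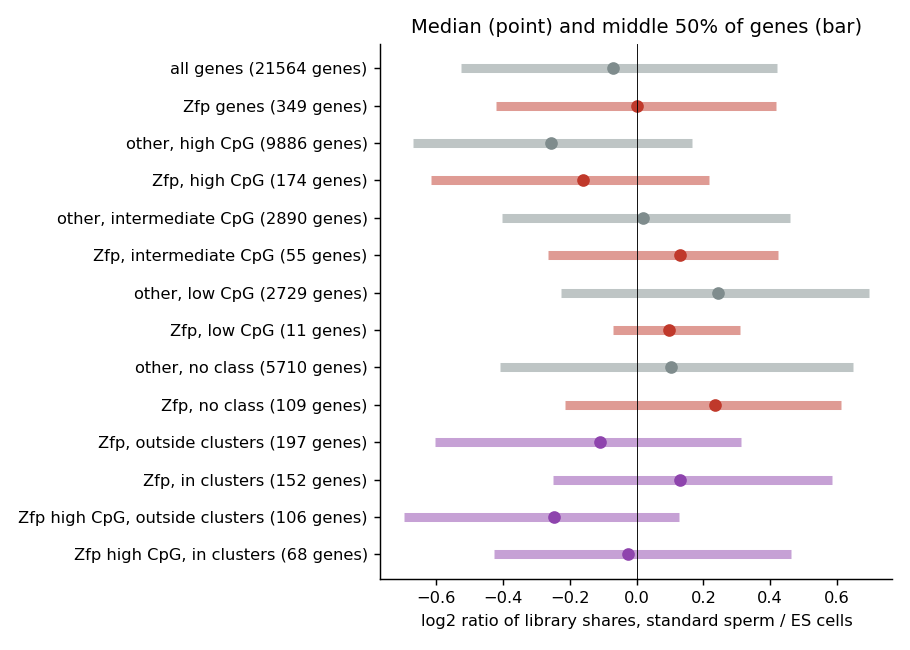
Median (point) and middle 50% of genes (bar) of the log2 ratio of library shares, standard sperm over ES cells, for all genes, Zfp genes, each CpG class and Zfp genes inside and outside physical clusters. High-CpG genes lie furthest left, and high-CpG Zfp genes in clusters have a median of −0.02 against −0.25 outside.

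The lowest sperm levels were those of Zfp36, the mRNA decay factor also called tristetraprolin (chromosome 7, start 29164247 in mm9), and Zfp335, a chromatin-associated C2H2 factor needed in brain and T cell development. Zfp36 had 34.4 fragments in ES cells and 3.64 in standard sperm, a log2 ratio of −2.36 (−4.74 to −1.12). In the unspun libraries of 0.5, 2, 10 and 50 units Zfp36 had 1.46, 0.0, 1.0 and 0.0 fragments, too few to place it. Zfp335 had 35.0 and 4.77 fragments, a log2 ratio of −2.06 (−4.06 to −0.92). Both promoters are high-CpG. The other 8 of the 10 lowest were Zfp319, Zfp467, Zfp512b, Zfp7, Zfp275, Zfp804a, Zfp14 and Zfp462, with ratios from −1.69 to −1.14 for the first 7 and −1.12 for Zfp462. Within 2000 bp the ratio of Zfp804a was 0.033, so its low value was that of the inner window only.

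The highest among genes with at least 20 fragments in 1 library was Zfp352 (chromosome 4, start 89885510 in mm9; no CpG class), a gene known for its transcription in the early embryo. It had 10.9 fragments in ES cells and 34.4 in standard sperm, a log2 ratio of 2.15 (1.22 to 3.37), and 1.0, 1.0, 0.0 and 0.0 fragments over the unspun doses. Zfp68 followed with 21.7 and 38.2 fragments and a ratio of 1.36, which was 0.49 within 2000 bp. Zfp94, whose window is printed above, had 19.1 and 32.5 fragments, 1.32 (0.49 to 2.25). Zfp81, Zfp521, Zfp109, Zfp40, Zfp93, Zfp114 and Zfp157 lay between 1.06 and 1.16. Of these 10 genes 4, namely Zfp94, Zfp109, Zfp93 and Zfp114, are neighbours in 1 cluster of chromosome 7. Zfp352, Zfp109, Zfp521 and Zfp94 had under 20 fragments in ES cells, so they passed the coverage minimum only through their sperm value.

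These 20 genes were picked by the ES and standard sperm libraries, so their ratios are a description. The unspun libraries did not enter the choice. Summed over the 4 doses, the 10 highest genes had 31.4 unspun fragments, 1.06 times the average promoter (0.721 to 1.5), where they had 0.604 times in ES cells and 1.46 times in standard sperm. The 10 lowest had 39.1 unspun fragments, 1.32 times the average (0.939 to 1.80), where they had 1.13 times in ES cells and 0.380 times in standard sperm. For the 10 lowest genes the unspun interval lay above the standard sperm value and included that of ES cells. Genes picked for extreme values are expected to lie nearer the average in libraries outside the choice. These values therefore cannot tell a difference between preparations from the effect of the selection.

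The most fragments in ES cells were found at Zfp418 (75.7, against 55.1 in sperm), Zfp708 (71.7 against 41.1), Zfp940 (71.2 against 32.2), Zfp286 (66.9 against 23.5) and Zfp811 (66.9 against 33.8). The median Zfp gene had 33.1 and 21.8. The fewest among the deeply covered genes were at Zfp352, Zfp109, Zfp985, Zfp521 and Zfp184, with 10.9 to 18.1 fragments. All 5 of these had a higher sperm than ES share, but this was fixed by the coverage rule. A gene with under 20 fragments in ES cells passed only through its sperm value, so nothing is read from it.

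Genes with a known role in silencing imprinted loci or retrotransposons had no interval that left 0 among 7 members, of which 5 were deeply covered. Of all deeply covered genes 12.9% lie above and 12.7% below. Of the 7, 6 were higher and 1 lower in sperm by value, with a median of 0.37, and 46.0% of all genes were higher. Only 2 of the 7 are high-CpG, and of Zfp genes without a class 63.3% were higher. Zfp57, which keeps methylation at imprinted regions, had 57.1 fragments in ES cells and 38.8 in sperm, a ratio of 0.03. Zfp445, which shares that task, had 25.8 and 27.9, a ratio of 0.69. Zfp809, which represses proviruses of murine leukaemia virus, had 25.8 and 27.8, and a ratio of 0.68. Zfp568, Zfp961, Zfp932 and Zfp708 had ratios of 0.93, 0.37, 0.16 and −0.21. The 6 testis-expressed genes with a match, out of 7 listed, had a median of 0.25 and a range from −0.10 for Zfp541, a meiotic factor, to 0.65 for Zfp819. None of their intervals left 0 either. In lists this short such counts of 0 are near the background.

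Factors of pluripotent cells and general factors were split. Zfp296, which is expressed in ES cells and binds Klf4, had 48.0 fragments in ES cells and 14.8 in sperm, −1.06 (−2.07 to −0.26), and Zfp462 was also lower. Zfp322a had 36.1 and 29.9 fragments, a ratio of 0.31, and Zfp352 was the highest of the deeply covered genes. Of 8 general factors 3 were higher and 5 lower, and the interval lay below 0 for Zfp36 and Zfp335. Of the 8, 7 are high-CpG. In that class 34.2% of other genes were higher, and 16.7% of those deeply covered had an interval below 0, so these counts are near the background. Zfp143, the activator whose site is described above, had 34.2 and 27.2 fragments and a ratio of 0.25, and Zfp148, which binds GC-rich promoter elements, had 22.0 and 7.68 and a ratio of −0.83.

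Of 6 developmental regulators 5 were lower in sperm by value, with a median of −0.61. Of the 6, 4 are high-CpG, a class in which 34.2% of other genes were higher in sperm, so the count is near the background. The exception was Zfp521, a partner of Ebf factors, at 1.16. Zfp536, a neuronal repressor, had 33.6 and 10.4 fragments, −1.03, with an interval below 0. Zfp703 had 13.4 and 2.0 fragments and Zfp423 2.86 and 1.0, both under the coverage minimum. The 7 listed X-linked genes had a median of −0.01, and only the interval of Zfp275 lay below 0. With 3 of the 7 deeply covered, and 12.7% of all deeply covered genes below 0, this count cannot be told from the background.

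The corepressors through which KRAB zinc finger proteins act had a median near that of high-CpG genes at large. Of 20 listed genes 15 were lower and 5 higher in sperm by value, with a median of −0.28, and 15 of the 20 have high-CpG promoters, a class whose other genes had a median of −0.26. Daxx, a histone chaperone for H3.3, had 27.8 fragments in ES cells and 7.32 in sperm, −1.22, and Smarcad1, a chromatin remodeller, 70.4 and 24.0, −0.94. Atf7ip, the partner of Setdb1, went the other way with 34.6 and 41.1 fragments, 0.82. The intervals of the other 17 included 0. Of the 15 deeply covered corepressors 1 interval thus lay above 0 and 2 below. Over all deeply covered genes the shares were 12.9% and 12.7%, so these counts are near the background. Trim28 itself had 13.9 and 5.36 fragments, a ratio of −0.65, and Setdb1 22.5 and 20.4, a ratio of 0.44.

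Zfp genes were found on 20 chromosomes, most on chromosome 7 with 86 genes, chromosome 17 with 43 and chromosome 13 with 35. Clusters were defined as runs of start sites with gaps of at most 250 kb that hold at least 4 genes. This gave 19 clusters on 8 chromosomes with 155 genes and 160 start sites, of 4 to 22 genes each. The summed sperm level relative to ES cells ran from −0.41 to 0.66 (log2) over the clusters. The interval lay above 0 in 6 clusters and below 0 in 1, without adjustment over the 19. Of the 6, only 3 also had a summed unspun to ES value above 0.

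The largest, 22 genes on chromosome 13 between 67162106 and 67914752 (mm9), had a summed log2 ratio of 0.27 (0.12 to 0.42), and 17 of its 22 genes were higher in sperm by value. Zfp456, Zfp458 and Zfp429 stood at its top with 1.84, 1.79 and 1.52, each on few fragments: 3.96 in ES cells and 10.9 in sperm for Zfp456, 5.55 and 14.2 for Zfp458, and 8.5 and 17.3 for Zfp429. Zfp708 and its neighbour Zfp712 were at its bottom, −0.21 and −0.25. Relative to the average promoter this cluster had 1.07 times the fragments in ES cells (0.997 to 1.15), 1.29 times in standard sperm (1.19 to 1.39) and 0.588 times in the unspun libraries (0.420 to 0.800). The standard and unspun sperm values lay on opposite sides of the average.

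A cluster of 16 genes on chromosome 17 between 21520711 and 22561234 had a ratio of 0.48 (0.29 to 0.66). By value 15 of its 16 genes were higher in sperm, against 50.4% of all Zfp genes. These 15 ran from 0.00 at Zfp983 to 0.98 at Zfp942, and Zfp677 had −0.23. This held for standard sperm only: the cluster had 1.37 times the average promoter there and 0.983 times in ES cells. In the unspun libraries it had 0.761 times (0.533 to 1.05). Windows of 4 of the higher genes, Zfp942, Zfp943, Zfp758 and Zfp944, shared 86.4%, 87.2%, 84.5% and 77.0% of their 36-base words with a window at another locus, so their fragments may not be separate. The other chromosome 17 cluster, of 13 genes, had a log2 ratio of −0.12 (−0.32 to 0.09), an interval that did not overlap that of the 16-gene cluster. A cluster of 5 genes on chromosome 8 between 72149074 and 72298810 had 0.52 (0.24 to 0.79), with its genes between 0.24 at Zfp964 and 0.69 at Zfp866. These 3 regions hold few start sites of other genes: 3 in the chromosome 13 span and none in the chromosome 8 and chromosome 17 spans.

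The chromosome 7 cluster between 24866962 and 25372660, with 12 genes, had 0.48 (0.23 to 0.72), while the 11 start sites of other genes in the same span had −0.38 (−0.66 to −0.10). Within it Zfp94, Zfp109, Zfp93, Zfp114 and Zfp235 lay between 0.88 and 1.32, and Zfp108, Zfp575, Zfp112, Zfp61 and Zfp428 between −0.52 and −0.03. In the unspun libraries this cluster had 1.19 times the average promoter, against 1.05 in standard sperm and 0.753 in ES cells. It was the 1 cluster with an unspun to ES interval above 0, at 0.66 (0.16 to 1.13), and 3 clusters had one below 0. These comparisons share the ES library.

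The cluster below 0 was that of 8 genes on chromosome 7 between 134376956 and 134757947, at −0.41 (−0.78 to −0.05). Zfp768, Zfp689 and Zfp688, all high-CpG, were lowest there with −1.59, −0.97 and −0.92, although Zfp768 had only 11.4 and 1.77 fragments and an interval that included 0. The 14 other start sites in its span had −0.39 (−0.61 to −0.16), close to the Zfp value.

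**Figure D4:**
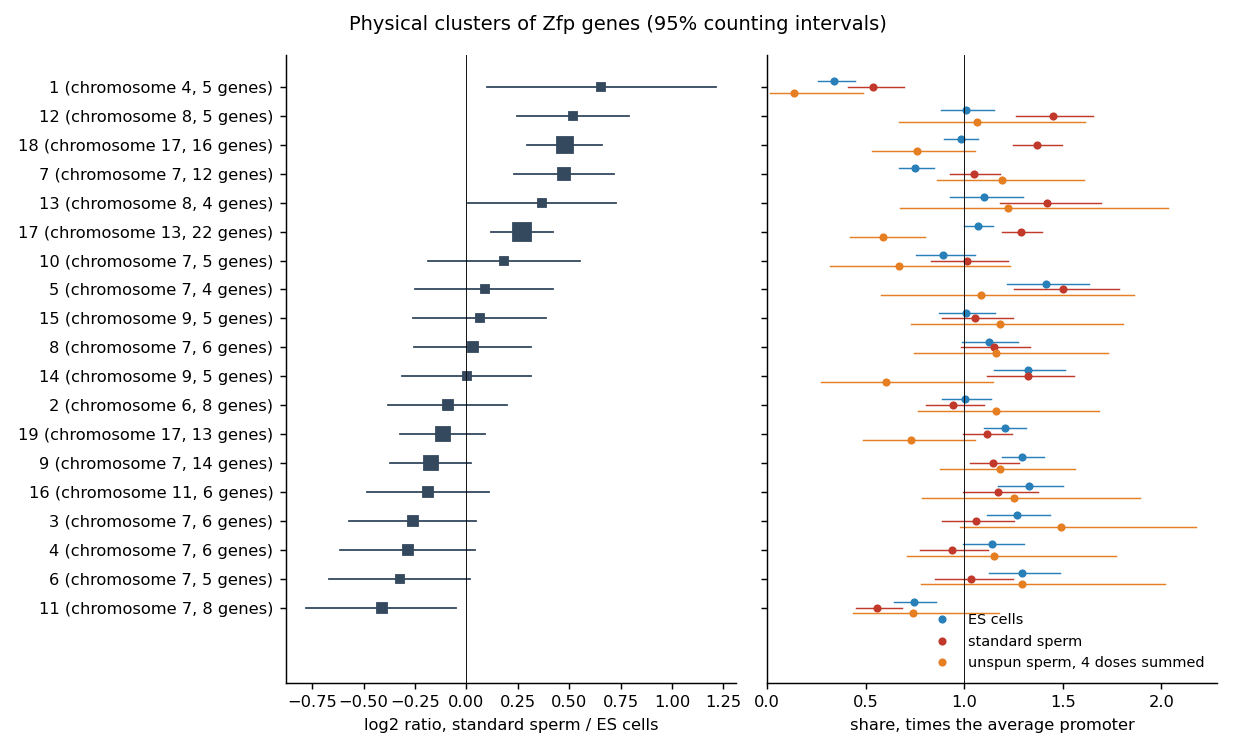
For each of the 19 physical clusters, the summed log2 ratio of standard sperm over ES cells (left, marker size by number of genes) and the share per start site in ES cells, standard sperm and the 4 unspun libraries summed, as times the average promoter (right), with 95% counting intervals. The interval lies above 0 in 6 clusters, and the 22-gene cluster of chromosome 13 has 1.29 times the average in standard sperm and 0.588 times in unspun sperm.

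Summed by chromosome, Zfp promoters of chromosome 13 had a log2 ratio of 0.28 (0.16 to 0.40) where the other promoters there had 0.11, and those of chromosome 4 had 0.29 (0.08 to 0.51) where the others had −0.08. Chromosome 7 Zfp promoters had −0.13 (−0.22 to −0.05) against 0.05, and those of chromosome 6 had −0.25 (−0.43 to −0.06) against 0.22. On these 4 chromosomes the Zfp intervals did not include the value of the other promoters. The same held on chromosomes 1, 2, 3 and 16, where Zfp promoters were lower, and on chromosomes 8 and 17, where they were higher. On chromosome 2, for example, Zfp promoters had −0.20 (−0.39 to −0.02) against 0.10, and on chromosome 17 0.11 (−0.0007 to 0.23) against −0.10. On some of the remaining chromosomes the values were close, as on chromosome 11 with −0.19 (−0.35 to −0.04) against −0.25 and on chromosome 5 with −0.05 against −0.08. The class makeup differed too: 50 of 89 Zfp sites on chromosome 7 were high-CpG, and 9 of 37 on chromosome 13.

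A further group had no fragments at all. At 16 start sites of 12 genes nothing was counted within 2000 bp in ES cells, in standard sperm or in any unspun library, 4.10% of Zfp sites against 2.61% of all sites. They were 7 sites on chromosome 4 (Zfp980, Zfp600, Zfp991, Zfp982, Zfp979 and Zfp534), 5 on chromosome 2 (Zfp966, Zfp970 and Zfp931), 2 on chromosome 10 (Zfp781) and 2 on chromosome 17 (Zfp97 and Zfp955a). None had a CpG class. They are not counted in the medians above.

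Their windows recur elsewhere in the genome. Zfp966 and Zfp970 are printed because they show this most plainly among windows that are not identical (the pair was chosen after the values were seen): they match at 293 of 295 overlapping bases, 99.3%. They lie at chr2:175931051-175931350 on the minus strand and chr2:177464492-177464791 on the plus strand in GRCm38.p6, and capitals mark the bases at which they differ.
Zfp966: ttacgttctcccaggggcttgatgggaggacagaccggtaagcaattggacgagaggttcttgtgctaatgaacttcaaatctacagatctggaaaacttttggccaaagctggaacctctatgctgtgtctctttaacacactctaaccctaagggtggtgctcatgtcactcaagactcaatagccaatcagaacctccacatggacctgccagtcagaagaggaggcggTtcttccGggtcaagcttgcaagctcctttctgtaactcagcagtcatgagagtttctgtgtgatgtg
Zfp970: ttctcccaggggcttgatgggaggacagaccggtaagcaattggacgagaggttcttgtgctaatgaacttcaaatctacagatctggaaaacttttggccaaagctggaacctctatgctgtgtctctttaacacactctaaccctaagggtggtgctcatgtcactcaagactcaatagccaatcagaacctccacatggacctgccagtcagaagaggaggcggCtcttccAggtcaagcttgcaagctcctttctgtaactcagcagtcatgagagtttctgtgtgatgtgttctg

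Of the 11 genes at 0 with a window, 8 shared at least 50% of their 36-base words with a window at another locus, and the median was 94.3%. Among 282 Zfp genes with signal 5 did, and the median was 0. Zfp955a and Zfp955b were identical over all 300 bases, and Zfp600 and Zfp979 at 98.3% of 294 bases. How the submitters' alignment treated reads that match several places cannot be read from the labels or files. Its part in the values of 0 was not tested, so these promoters cannot be called free of nucleosomes.

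A few other promoters had fragments in the standard sperm library and at most 1 in ES cells. At Zfp808 (0.955 in ES cells and 1.0 in sperm within 2000 bp), Zfp955b (1.0 and 1.0) and Zfp971 (1.0 and 2.0) both libraries held very little. Zfp772 went the other way, with 1.27 and 0.0. Zfp984, in a chromosome 4 cluster with 2 genes at 0, had 1.0 fragment in ES cells and 12.6 in standard sperm within 2000 bp, a log2 ratio of 4.12 (1.38 to 9.54) without an added fragment. By the measure used above, within 1000 bp and with 1 fragment added, it had 2.89. Zfp937 had 0 and 6.95 fragments, and the counting interval of its log2 ratio began at 0.99. Zfp987 had 0 and 3.95, with an interval that began at −0.15. Zfp984, Zfp937 and Zfp987 had no fragment in the 4 unspun libraries. Their windows shared 26.4%, 44.5% and 58.5% of their 36-base words with a window at another locus, so the limit given for the genes at 0 applies here too.

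Over the sperm MNase series Zfp promoters had more fragments just downstream of the start site at the highest doses. For the 253 Zfp start sites in the count tables the downstream start-site ratio of the unspun series was 0.689 (0.446 to 1.03), 1.03, 1.42 and 1.61 (1.09 to 2.33) at 0.5, 2, 10 and 50 units. In the supernatant series it was 1.10, 1.22, 1.14 and 1.80 (1.30 to 2.46) at 1, 5, 20 and 100 units, and in the pellet series 0.582 (0.195 to 1.38), 1.14, 0.869 and 1.76 (1.23 to 2.47). The highest dose gave the highest ratio in each of the 3 series. Fitted with 1 slope for the 3 series, it changed by 0.16 on the log2 scale for each doubling of the enzyme (counting interval 0.08 to 0.24), and 0.17 (0.16 to 0.18) in the other classed promoters. Without the highest dose the Zfp slope was 0.13 (−0.01 to 0.28). These sets differ in class makeup. Within the high-CpG class the downstream slope was 0.15 (0.06 to 0.24) in Zfp promoters and 0.22 (0.20 to 0.23) in the others. Upstream the ratio of all classed Zfp promoters had a shared slope of 0.10 (−0.01 to 0.22). It went from 0.732 at the lowest to 1.02 at the highest unspun dose, from 1.06 to 0.943 in the supernatant series and from 0.397 to 1.11 in the pellet series.

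The share of fragments at Zfp promoters had no upward slope over the doses. Relative to the average promoter it was 1.08, 0.977, 0.990 and 0.929 times over the unspun doses, 1.17, 0.991, 0.946 and 0.943 over the supernatant doses and 0.899, 0.838, 1.04 and 0.842 over the pellet doses. High-CpG Zfp promoters had a slope of −0.02 (−0.05 to 0.02) per doubling, and the other high-CpG promoters 0.03 (0.03 to 0.04). From the lowest to the highest unspun dose the share went from 1.05 to 0.989 times the average in high-CpG Zfp promoters and from 0.928 to 1.09 times in the others. In the 2 libraries of 1 unit 89.3% and 89.4% of isolated runs spanned 1 or 2 bins, against 15.4% to 30.5% in the other count tables. Without both, the slopes were −0.01 (−0.05 to 0.03) and 0.03.

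**Figure D5:**
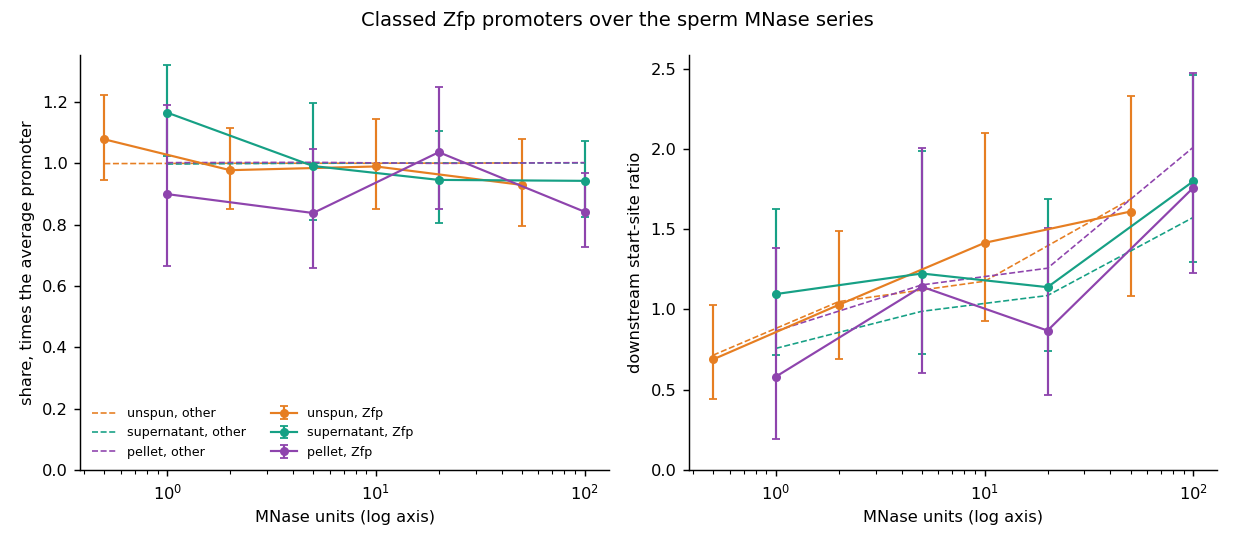
Share of fragments as times the average promoter (left) and downstream start-site ratio (right) against MNase units (log axis) for classed Zfp promoters (points and solid lines, bars 95% counting intervals) and other classed promoters (dashed lines) in the unspun, supernatant and pellet sperm series. The Zfp downstream ratio is highest at the highest dose of each series, 1.61, 1.80 and 1.76.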

How the data were processed

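MNase libraries of ES cells and sperm were sequenced as read pairs. The submitters' processing notes name the mm9 build, Bowtie and SAMtools 0.1.16. The deposited pileup signal of 6 libraries gives coverage by fragments of 135 to 165 bp in 20 bp bins within 2000 bp of each start site. The deposited counts of 8 titration libraries come with the CpG class. Their header labels bins at 20 bp, but rows of start sites that overlap matched at 50 bp (99.3% and 98.5% of bins equal in both 100-unit tables, against 2.36% and 2.51% at 20 bp), so 50 bp bins within 5000 bp were used. The authors' tables carry no library normalization that a header names. Values were divided by the worth of 1 isolated fragment and then by the total over all distinct start sites. Symbols came from a RefSeq gene table and sequences from RefSeq promoter windows (GRCm38.p6); the coordinates of start sites are mm9. Each group was taken from the sample title, and 2 pellet libraries whose descriptions give another unit number were named by their title.

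Named genes were the 10 highest and 10 lowest log2 ratios and the 5 highest and 5 lowest ES sums among genes with at least 20 fragments in 1 library, plus role lists. Members and lists were chosen with earlier results of these data known. Alternatives were the window, pseudocount, start sites, coverage minimum, flanks, cluster gap and doses. Python 3.11.15, numpy 2.4.6, pandas 2.3.3, scipy 1.17.1 and matplotlib 3.10.9 were used, and the calculations were tested on simulated data. Unspun ES cells, sonicated sperm input and sperm H3 ChIP (3 samples) and protein sequences were not analysed here.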

Additional observations from a re-analysis of the deposited data

How the results depend on the processing

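With 1 library in each group, spread between cultures or animals is unknown and single promoters rest on few fragments. Of 73 alternative values of the main results 60 stayed within the limits set for no change. Summing only 200 bp to each side left no Zfp gene 2-fold higher (0, against 10) or lower (0, against 16), since few reach 20 fragments there, and gave a summed log2 ratio of −0.18 for all and −0.38 for high-CpG Zfp promoters. The 2-fold lower count was 6 with 2000 bp, 5 with a pseudocount of 5 fragments and 7 with a minimum of 40 fragments, at which the higher count was 0. Classed members alone had a summed ratio of −0.0698. Flanks of 500 to 1000 bp gave standard sperm start-site ratios of 0.457 upstream and 0.287 downstream over all Zfp promoters, against 0.415 and 0.261. Clusters with an interval below 0 numbered 2 with gaps of at most 100 kb and 5 with 2000 bp, and there the 4-gene cluster of chromosome 8 went from 0.37 to −0.0669. Of 58 named genes the direction of a called value turned within 200 bp for Zfp512b (1.11), Zfp68 (−0.46), Zfp703 (0.17), Zfp804a (0.83) and Zfp985 (−0.64), and within 2000 bp for Zfp804a (0.033); the cause was not tested. No paired analysis was possible because each group is 1 library.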
